A study of Mus musculus with 24 samples.

Results

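The genes described here are 10 genes of the distal convoluted tubule and the connecting tubule, the short nephron segments between the loop of Henle and the collecting duct: Slc12a3, Wnk1, Wnk4, Trpm6, Cnnm2, Pvalb, Trpv5, Calb1, Slc8a1 and Klk1. They were chosen by name, and all 10 were found among the 54532 genes of the count table and passed the expression limit for testing, so no member was lost to a filter on low values. RNA-seq of the whole kidney gave their levels in 24 C57BL/6 mice aged 18 days, and each mouse gave 1 library.

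Every mouse had on one chromosome the RC mutation of Pkd1, a missense change that lowers the amount of mature polycystin-1. In the RC/+ groups, labelled control, the other allele was a floxed Pkd1 allele left intact because no Cre was present. In the RC/- groups, labelled cystic, Ksp-Cre had inactivated it. Ksp-Cre is driven by the promoter of kidney-specific cadherin, a tubule gene that is active in the distal segments, so the deletion is restricted to cells in which that promoter has been active, and effects of the Cre transgene and of the cystic genotype cannot be told apart. CRISPR/Cas9 had removed the miR-17 binding motif of the RC allele in a pair of edited lines, each of which goes back to a single founder: D18 (founder 3) and D53 (founder 2). There were 3 mice in each of RC/+, RC/+ D18 and RC/+ D53, and 5 in each of RC/-, RC/- D18 and RC/- D53.

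Libraries held 20379982 to 30837488 gene counts, and levels are given as CPM, in which the counts of a library sum to the same total. Pkd1 itself lay between 49.9 and 51.5 CPM in RC/+ and between 52.0 and 65.2 CPM in RC/-. Its gene count covers the whole transcript and does not separate the floxed from the RC allele, so it is no check of the labels. Libraries 20 to 27, which are 3 of the RC/- D18 and all 5 RC/- D53 libraries, stood apart in skeletal muscle transcripts: the 12 muscle markers summed to 181 to 240 CPM there and to 8.70 to 14.6 CPM in the other 16 libraries. Pvalb is also a gene of fast muscle fibres. In bulk kidney RNA, fewer cells of a type and less RNA per cell cannot be told apart.

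The distal convoluted tubule reabsorbs sodium chloride through the thiazide-sensitive cotransporter encoded by Slc12a3, whose activity is set by the kinases WNK1 and WNK4 through SPAK. The same segment takes up magnesium through the channel TRPM6, and its later part and the connecting tubule take up calcium through TRPV5, bind it in the cytosol with calbindin-D28k and pass it to the blood through the sodium-calcium exchanger and calcium pumps. Connecting tubule cells also make tissue kallikrein, a secreted protease encoded by Klk1. Whole-kidney levels of genes that are used in other segments too, such as Wnk1 and Cnnm2, mix several cell types.

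Levels of different members can be set side by side only per length. The length used is that of the merged exons of all annotated transcripts of a gene. It can exceed the length of a single mRNA, as a gene may have many transcripts (26 for Wnk1), and the order given holds for this choice. In CPM, Wnk1 at 460 was above Wnk4 at 141 in RC/+ kidneys. In RC/+ kidneys Klk1 had the highest level, 1545 ± 107 CPM per kb of exon (SD, n = 3), followed by Calb1 at 98.4 ± 8.73, Slc12a3 at 62.1 ± 1.75, Wnk4 at 33.9 ± 1.17 and Wnk1 at 20.2 ± 2.01 CPM per kb. Pvalb, Trpv5 and Cnnm2 followed at 11.53 ± 3.81, 7.41 ± 0.743 and 6.47 ± 0.402 CPM per kb, and among these the ranges of neighbouring genes overlapped. Trpm6 and Slc8a1 were lowest at 2.88 ± 0.321 and 1.02 ± 0.131 CPM per kb. In RC/- kidneys the order changed in the middle. Klk1 was still first at 419 ± 79.8 CPM per kb (SD, n = 5), but Calb1 at 23.2 ± 7.06, Wnk4 at 21.4 ± 6.503, Slc12a3 at 19.3 ± 6.52, Trpv5 at 14.02 ± 4.40 and Wnk1 at 10.4 ± 1.42 CPM per kb had ranges that overlapped from neighbour to neighbour.

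**Figure D1:**
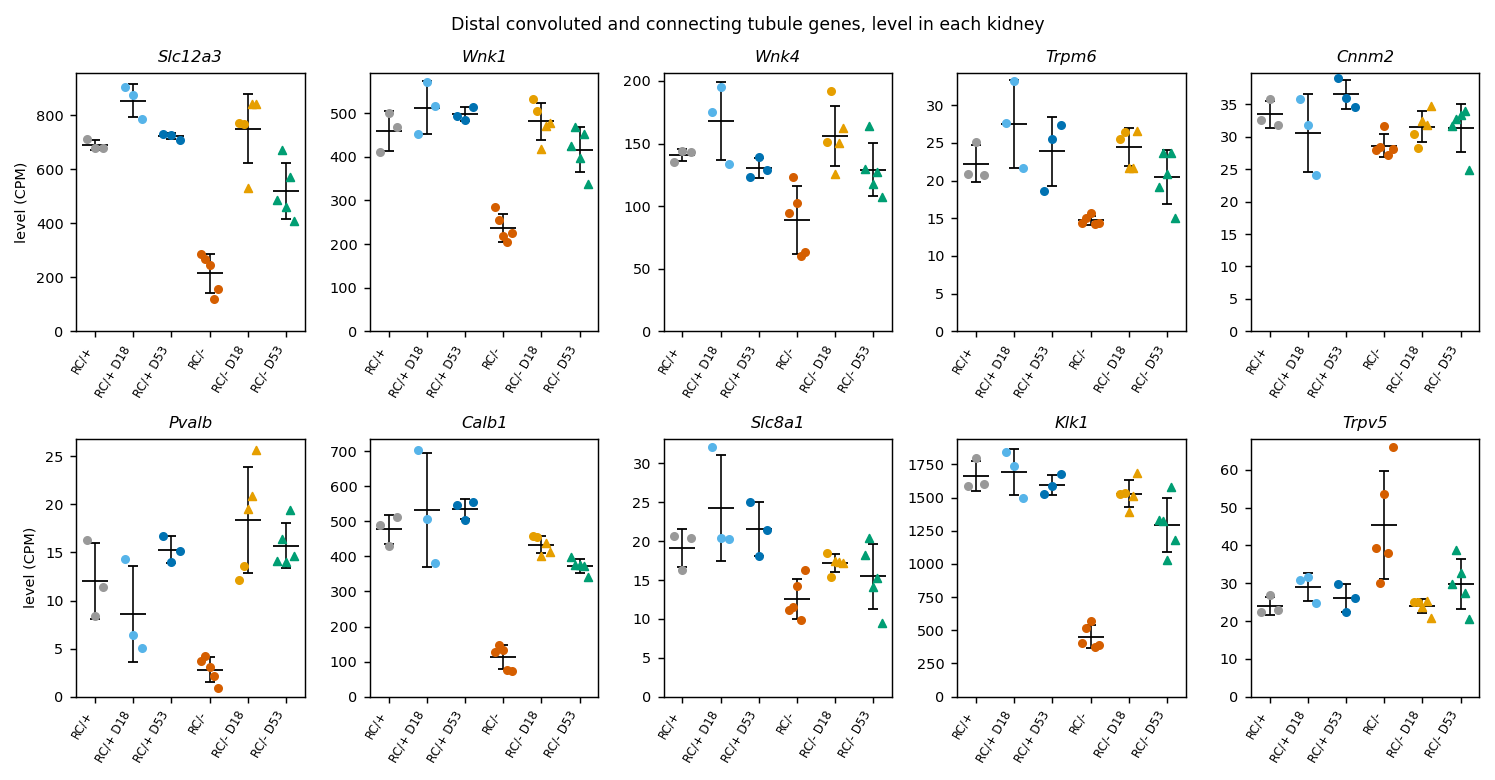
Level of each of the 10 genes in CPM (linear axis from 0) in every kidney by group, with the group mean and SD as a black bar; circles are libraries 4 to 19 and triangles are libraries 20 to 27, which hold skeletal muscle transcripts. The 5 RC/- kidneys lie below all RC/+ kidneys for 8 genes, above them for Trpv5 and overlap them for Slc8a1, where 11.6% of all genes tested separate downwards and 26% upwards in this way.

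The first comparison, RC/- against RC/+, shows how these genes differ between cystic and noncystic kidneys with an unedited RC allele. Of the 10 members, 8 fell, Trpv5 rose and Cnnm2 did not pass the test (limma-trend on log2 CPM, Benjamini-Hochberg adjusted p below 0.05 over 22570 genes). Over all genes tested, 12.2% fell and 25.5% rose, which became 17.3% and 17% with TMM factors, a scaling that assumes most genes do not differ. The median log2 fold change of the members was -0.84, and that of all genes was 0.14 with total-count scaling and 0.01 with TMM factors. Under TMM factors the same 9 members kept their direction and call, and Cnnm2 became the tenth, at -0.36 (adjusted p = 0.0234).

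Of the salt transport genes, the members Slc12a3, Wnk1 and Wnk4 fell, the cotransporter most. Stk39, which encodes SPAK and is not a member, is named here after its values were seen. It went the other way, from between 67.3 and 72.3 CPM in RC/+ to between 90.7 and 119 CPM in RC/- kidneys. Such an upward separation was found for 26% of all genes tested. Slc12a3, on chromosome 8 at 94329201 to 94366214 of GRCm38, had levels of 713, 681 and 678 CPM in the RC/+ kidneys. In the RC/- kidneys it had 285, 268, 247, 121 and 156 CPM. The groups did not overlap, and replicates 16 and 17 were the lowest of the RC/- kidneys. It fell by 1.76 on the log2 scale (SE 0.21, adjusted p = 3.42e-07, limma-trend), a change lower than that of all but 0.503% of the genes tested.

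The promoter of Slc12a3 is shown because the gene marks the segment. The stretch is chr8:94328958-94329200 on the plus strand of GRCm38 (RefSeq, GRCm38.p6), which ends before the first annotated exon base, and capitals mark AGATAA, a sequence that GATA factors bind, and TATAAA, the TATA box.
Slc12a3: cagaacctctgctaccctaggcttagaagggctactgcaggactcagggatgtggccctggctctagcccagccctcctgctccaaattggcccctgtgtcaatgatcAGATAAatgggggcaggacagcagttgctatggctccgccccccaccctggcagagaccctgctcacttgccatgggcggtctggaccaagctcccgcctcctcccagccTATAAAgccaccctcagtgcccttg
These motifs start 142 and 32 bases before the RefSeq start of the transcript. On either strand of the 250 bases before the start, AGATAA was present in 3 and TATAAA in 2 of the 9 members listed in the promoter table, against 9.99% and 12.4% of all 32851 promoters. Besides Slc12a3, AGATAA was found 68 bases before the start of Slc8a1 and 51 bases before that of Trpv5, and TATAAA was found 43 bases before the start of Trpv5. A match of 6 letters is a description and does not show that a factor binds.

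The kinases fell less than the cotransporter. Wnk1 (chromosome 6, 119923969 to 120038672, minus strand) had 410.5, 501 and 468 CPM in RC/+ kidneys and 285, 254, 217, 204 and 225 CPM in RC/- kidneys, with no overlap. It fell by 0.96 on the log2 scale (SE 0.11, adjusted p = 2.33e-07, limma-trend). The gene has 26 annotated transcripts, and the gene count does not separate the kidney-specific short form, which lacks the kinase domain and is made in the distal convoluted tubule, from the full-length form. Wnk4 (chromosome 11, 101260567 to 101277409) had 135, 144 and 143 CPM in RC/+ kidneys. In RC/- kidneys it had 94.9, 124, 103, 59.9 and 63.6 CPM, all lower, with the same replicates 16 and 17 lowest. It fell by 0.72 on the log2 scale (SE 0.18, adjusted p = 0.00289, limma-trend), and 7.38% of its exon length is shared with a gene model on the opposite strand. Within each library, the log2 ratio of Wnk4 to Slc12a3 in CPM was -2.29 ± 0.0907 in RC/+ (SD, n = 3) and -1.25 ± 0.218 in RC/- (SD, n = 5), and these ranges did not overlap.

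Of the magnesium genes, the channel fell and the other gene tied to magnesium in the distal tubule did not pass the test. Trpm6, the channel through which magnesium enters from the urine (chromosome 19, 18749983 to 18892511), had 20.9, 25.1 and 20.8 CPM in RC/+ kidneys. In RC/- kidneys it lay within a narrow span, at 14.4, 14.99, 15.7, 14.3 and 14.4 CPM, below every RC/+ kidney. Trpm6 thus fell by 0.59 on the log2 scale (SE 0.15, adjusted p = 0.00245, limma-trend). Cnnm2, a basolateral membrane protein needed for magnesium balance (chromosome 19, 46761596 to 46880192), had 32.6, 35.8 and 31.9 CPM in RC/+ kidneys against 27.9, 28.3, 31.6, 27.1 and 28.05 CPM in RC/- kidneys. The libraries did not overlap, but the difference of -0.22 (95% interval -0.45 to -0.00, adjusted p = 0.109, limma-trend) missed the threshold. It passed under other scalings and under edgeR (-0.36, adjusted p = 0.0219).

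Pvalb, which encodes the calcium-binding protein parvalbumin of the early distal convoluted tubule (chromosome 15, 78191114 to 78206400, minus strand), had 16.3, 8.40 and 11.4 CPM in RC/+ kidneys. It had 3.72, 4.22, 3.14, 2.14 and 0.885 CPM in RC/- kidneys. All 5 were below the RC/+ kidneys, and the log2 fold change came to -2.18 (SE 0.36, adjusted p = 3.83e-05, limma-trend). None of these 8 libraries is among those with high muscle transcripts, and 0 of the 11 muscle markers tested passed the test in this comparison.

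The calcium genes went in opposite directions. Trpv5, the channel for calcium entry (chromosome 6, 41652173 to 41680769, minus strand), was the only member to rise. It had 22.4, 26.8 and 22.9 CPM in RC/+ kidneys and 39.4, 30.1, 53.7, 38.1 and 66.0 CPM in RC/- kidneys, all of them higher. It rose by 0.87 on the log2 scale (SE 0.19, adjusted p = 0.000758, limma-trend), a value with 88.9% of all tested genes below it, so the rise lies inside the bulk of the genes that rose.

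Calb1, encoding calbindin-D28k, the buffer that carries calcium across these cells (chromosome 4, 15881264 to 15908064), had 489, 429.7 and 512 CPM in RC/+ kidneys. In RC/- kidneys it had 128, 148, 134, 77.0 and 74.1 CPM, with replicates 16 and 17 again lowest. Calb1 fell by 2.14 on the log2 scale (SE 0.18, adjusted p = 2.60e-09, limma-trend), and only 0.144% of the genes tested had a lower one. Slc8a1, the basolateral sodium-calcium exchanger (chromosome 17, 81373105 to 81738377, minus strand), had 20.7, 16.3 and 20.4 CPM in RC/+ kidneys against 11.2, 11.49, 14.2, 9.82 and 16.3 CPM in RC/- kidneys. The highest RC/- kidney reached the lowest RC/+ kidney. The fall of -0.61 (SE 0.20, adjusted p = 0.0154, limma-trend) lost its call without RC/+ replicate 4 (-0.55, adjusted p = 0.0681) or replicate 6 (-0.57, adjusted p = 0.0632), with a difference of similar size. The log2 ratio of Trpv5 to Calb1 within a library was -4.31 ± 0.267 in RC/+ and -1.30 ± 0.793 in RC/-.

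Among the 8 other calcium transport genes, only Trpv6 passed as higher, the close relative of Trpv5 that also carries calcium into cells. It had 2.94, 3.14 and 2.25 CPM in RC/+ kidneys and 37.6, 40.8, 57.9, 50.9 and 69.6 CPM in RC/- kidneys. It rose by 4.15 on the log2 scale (SE 0.19, adjusted p = 2.28e-13, limma-trend), and no stretch of 100 bases of Trpv5 recurs in the annotated transcripts of another gene. S100g, encoding calbindin-D9k, a second calcium buffer, fell from between 638 and 883 CPM to between 157 and 258 CPM (log2 fold change -1.71, SE 0.14, adjusted p = 1.76e-09). Casr, the calcium-sensing receptor, fell as well (log2 fold change -1.39, adjusted p = 2.17e-05). The calcium pump Atp2b1, named here after its values were seen because it shares the exit step with Slc8a1, did not pass the test (log2 fold change 0.20, adjusted p = 0.0667). Of the 8 other calcium genes, 1 rose, 5 fell and 2 did not pass, against 25.5% of all genes that rose and 12.2% that fell.

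**Figure D2:**
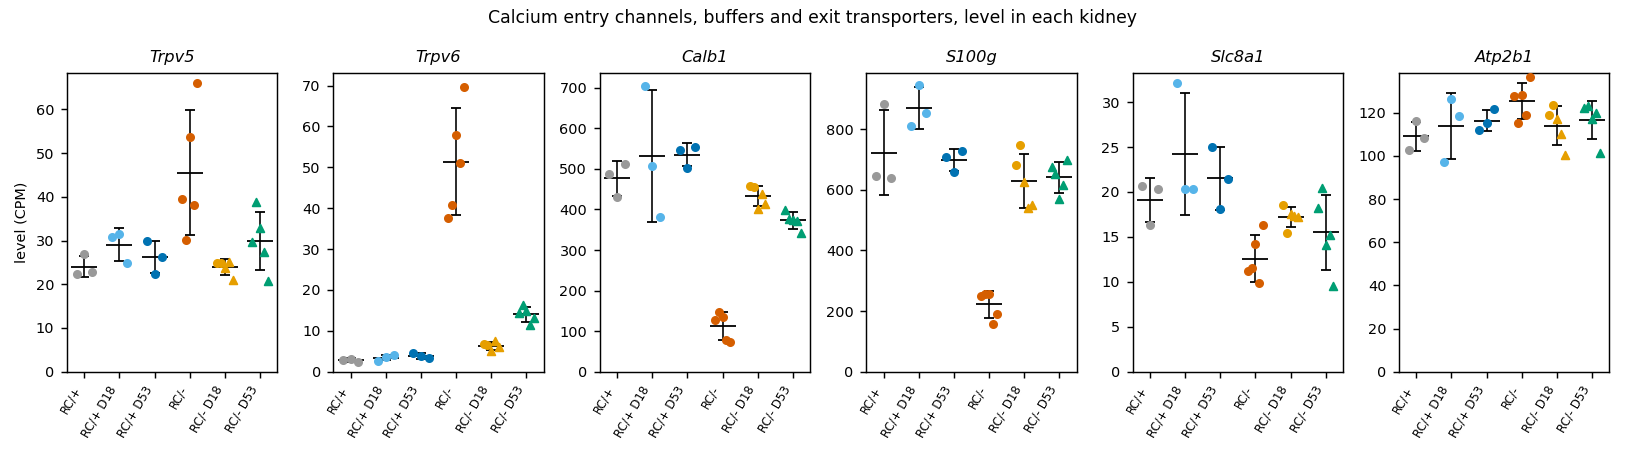
Level in CPM (linear axis from 0) of the calcium entry channels Trpv5 and Trpv6, the buffers Calb1 and S100g and the exit transporters Slc8a1 and Atp2b1 in every kidney, with mean and SD; triangles are libraries 20 to 27. The group means of both channels are highest in RC/- kidneys, with Trpv6 at 37.6 to 69.6 CPM, and those of both buffers are lowest there, with Calb1 at 74.1 to 148 CPM.

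Klk1, encoding tissue kallikrein (chromosome 7, 44225360 to 44229618), had the highest level of the members. It had 1590.4, 1796 and 1605 CPM in RC/+ kidneys and 408, 519, 567, 372 and 393 CPM in RC/- kidneys. The groups were far apart compared with the spread within each, and the fall was -1.90 on the log2 scale (SE 0.13) and the smallest adjusted p of the members, 6.67e-11 (limma-trend). Mice have many close copies of this gene. Of the stretches of 100 bases in its transcripts, 5.09% recur in Klk1b5 or Klk1b11, and the 23 Klk1b genes summed to 0.581% to 1.64% of the Klk1 count of a library, so the level is little affected by reads assigned to the copies. Its promoter is shown because Klk1 was the member with the clearest separation; the 250 bases are chr7:44225110-44225359 on the plus strand of GRCm38 (RefSeq, GRCm38.p6), and capitals mark AGGTCA and its reverse complement TGACCT, a short sequence recognised by many nuclear receptors.
Klk1: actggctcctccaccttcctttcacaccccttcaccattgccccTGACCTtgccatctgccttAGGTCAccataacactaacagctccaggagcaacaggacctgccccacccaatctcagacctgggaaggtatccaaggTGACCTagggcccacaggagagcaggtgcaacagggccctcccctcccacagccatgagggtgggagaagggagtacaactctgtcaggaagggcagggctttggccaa
The 3 matches start 206, 187 and 109 bases before the RefSeq start. AGGTCA on either strand was in 1 of the 9 member promoters and in 14.02% of all promoters.

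Genes that work with the members moved in both directions. Of 13 regulators of the WNK and SPAK pathway, 4 rose (30.8%), 3 fell (23.1%) and 6 did not pass. Over all genes tested, 25.5% rose and 12.2% fell, so the share that rose was near that of all genes. With TMM factors 3 regulators rose and 4 fell, as Oxsr1 lost its call and Cul3 passed as lower. Hsd11b2, which protects the mineralocorticoid receptor from glucocorticoids in aldosterone-responsive cells, rose by 1.98 on the log2 scale (SE 0.15, adjusted p = 8.36e-10), and Nedd4l, a ubiquitin ligase for sodium transporters, rose by 0.77 (SE 0.11, adjusted p = 4.36e-06). Ppp1r1a, an inhibitor of protein phosphatase 1 (-1.55, SE 0.25, adjusted p = 2.52e-05), and Klhl3, the adaptor through which WNK kinases are degraded (-0.97, SE 0.11, adjusted p = 1.07e-07), fell. All 7 basolateral potassium channel, chloride channel and sodium pump genes fell, Fxyd2, the gamma subunit of the sodium pump, by 0.97 and Bsnd, the chloride channel subunit barttin, by 0.89 on the log2 scale. Their median was -0.63.

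Of 9 other magnesium genes, 2 rose (22.2%) and 3 fell (33.3%), against 25.5% and 12.2% of all genes. Egf, whose product stimulates TRPM6, fell by 2.98 (SE 0.31, adjusted p = 5.64e-08), more than any member. Slc41a1, a magnesium carrier, and Egfr, the receptor for EGF, rose by 0.77 and 0.30 on the log2 scale, the latter without passing under TMM factors (0.16, adjusted p = 0.317, limma-trend). Of 4 distal tubule transcription factors, 3 fell and 0 rose. Emx1 fell by 1.32 (SE 0.12, adjusted p = 1.23e-08) and Sall3 fell by 1.11 (SE 0.24, adjusted p = 0.000685).

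Markers of other tubule segments showed that lower levels were not confined to the distal convoluted tubule. Over all genes tested, 12.2% fell and 25.5% rose. All 10 proximal tubule markers fell, with a median of -1.31 that was lower than the members' median. Slc5a12, a lactate transporter, fell by 1.80, and Miox, an inositol-degrading enzyme, by 1.69 on the log2 scale. Of 7 thick ascending limb markers, 4 fell and 2 rose. Ptger3, a prostaglandin receptor, and the cotransporter Slc12a1 fell by 1.34 and 1.18, and the tight junction genes Cldn19 and Cldn16 rose by 0.53 and 0.28 on the log2 scale, Cldn16 without passing under TMM factors (0.14, adjusted p = 0.258, limma-trend). In the collecting duct, 6 of 8 principal cell markers rose and 0 fell, among them the transcription factor Gata3 by 2.02 and the sodium pump regulator Fxyd4 by 1.87. The summed level of these 8 markers was 914 to 1237 CPM in RC/+ and 1572 to 3677 CPM in RC/- kidneys.

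**Figure D3:**
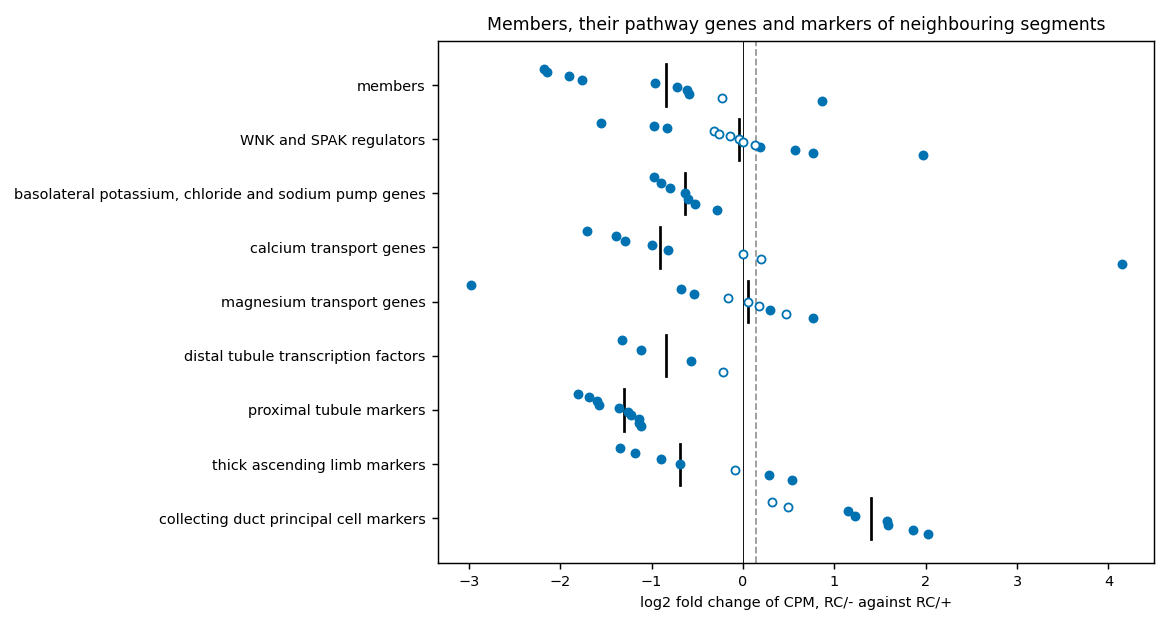
Log2 fold change of CPM in RC/- against RC/+ kidneys for each tested gene of the members' list, of 5 pathway lists and of 3 lists of markers of other tubule segments. Filled points passed the test at an adjusted p below 0.05, black bars are list medians and the dashed line is the median of all genes. The median is -0.84 for the members, -1.31 for proximal tubule markers and 1.40 for principal cell markers.

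Markers of tubule injury and of macrophages rose in this comparison, in which most members fell and 25.5% of all genes tested rose. Of 8 tubule injury markers, 7 rose, and their summed level was 539 to 620 CPM in RC/+ and 2497 to 4910 CPM in RC/- kidneys. All 8 macrophage markers rose, from a sum of 240.1 to 254 CPM to a sum of 447 to 788 CPM. Their part in the changes of the members was not tested.

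Deletion of the motif in noncystic kidneys did not shift any member past the threshold. Of the 10 members, 0 passed in RC/+ D18 against RC/+ and 0 in RC/+ D53 against RC/+ by limma-trend, 0 and 0 at an unadjusted p below 0.05, and 0 by edgeR or DESeq2. The percentage of all genes called by limma-trend was 0.00443% in D18 and 0% in D53. An unadjusted p below 0.05 was found for 1013 and 525 of all 22570 genes tested. Log2 fold changes of the members ranged from -0.57 (Pvalb) to 0.32 (Slc8a1) in D18 and from -0.11 (Wnk4) to 0.39 (Pvalb) in D53. The interval for Pvalb in D18, -1.41 to 0.26, shows that differences of this size are not resolved with 3 mice a group, whereas that for Klk1 was -0.27 to 0.31. In D18 the other members differed by 0.31 (Slc12a3), 0.29 (Trpm6), 0.27 (Trpv5), 0.24 (Wnk4), 0.15 (Wnk1), 0.11 (Calb1), 0.02 (Klk1) and -0.15 (Cnnm2). In D53 they differed by 0.07 (Slc12a3), 0.09 (Trpm6), 0.12 (Trpv5 and Wnk1), 0.13 (Cnnm2), 0.17 (Calb1 and Slc8a1) and -0.06 (Klk1). Calb1 lay at 705, 507 and 382 CPM in the RC/+ D18 kidneys.

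The comparison of RC/- D18 with RC/- kidneys asks how far the members differ when the RC allele lacks the motif. In RC/- D18 kidneys 8 members rose, Trpv5 fell and Cnnm2 did not pass (limma-trend), against 14.3% of all genes that rose and 26.9% that fell. These comparisons use the same RC/- kidneys as the comparison with RC/+, so the values are given side by side. In RC/- D53 kidneys 7 members rose, Trpv5 fell and Slc8a1 and Cnnm2 did not pass, against 11.3% of all genes that rose and 18.9% that fell. With TMM factors, 19.7% of all genes rose and 19.5% fell in D18, and 15% rose and 13.1% fell in D53.

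Slc12a3 had 771, 769, 529.8, 842 and 841 CPM in RC/- D18 kidneys and 487, 671, 462, 571 and 409.99 CPM in RC/- D53 kidneys. Both groups lay above every RC/- kidney, and replicate 20 was the lowest of D18. It rose by 1.86 on the log2 scale (SE 0.18, adjusted p = 1.61e-08) in D18 and 1.33 (SE 0.18, adjusted p = 4.36e-06) in D53 by limma-trend. Calb1 had 458, 455, 402, 439 and 413 CPM in RC/- D18 and 399, 377, 375, 372 and 342 CPM in RC/- D53 kidneys. These spans were narrow compared with that of the RC/+ D18 kidneys, and the log2 fold changes came to 2.01 (SE 0.16, adjusted p = 8.24e-10) and 1.79 (SE 0.16, adjusted p = 1.81e-08).

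Klk1 had 1525, 1536, 1394, 1508 and 1682 CPM in RC/- D18 and 1334, 1327, 1032, 1581 and 1182 CPM in RC/- D53 kidneys, with no overlap with RC/-. Its log2 fold changes were 1.78 (SE 0.11, adjusted p = 2.70e-11) and 1.52 (SE 0.11, adjusted p = 1.33e-09). Wnk1 rose by 1.03 in D18 and 0.81 in D53, and Wnk4 rose by 0.85 and 0.58 on the log2 scale. Wnk1 was between 419 and 533 CPM in D18 and between 337 and 468 CPM in D53 kidneys, all above the RC/- kidneys, while Wnk4 overlapped the RC/- kidneys in D53. Trpm6 rose by 0.72 (adjusted p = 6.07e-05) in D18 and by 0.45 (adjusted p = 0.00768) in D53.

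Trpv5 moved against the others here too. It had 24.9, 24.9, 23.8, 25.2 and 20.9 CPM in RC/- D18 kidneys, all below the RC/- kidneys, and 29.7, 38.7, 32.8, 27.3 and 20.6 CPM in RC/- D53 kidneys, which overlapped them. The fall was -0.87 (SE 0.16, adjusted p = 0.000138) in D18 and -0.58 (SE 0.16, adjusted p = 0.00859) in D53 by limma-trend. Trpv6 fell by 2.98 in D18, to between 4.94 and 7.45 CPM, and fell by 1.84 in D53, to between 11.4 and 16.3 CPM. Slc8a1 rose in D18 by 0.47 (adjusted p = 0.0295), but the call was lost without libraries 20 to 27 (0.44, adjusted p = 0.121) and without any 1 of RC/- replicates 13, 14 and 16 and RC/- D18 replicates 18 and 21 (adjusted p from 0.0506 to 0.0890). In D53 its difference was 0.28 (adjusted p = 0.242), which passed at 0.44 (adjusted p = 0.0313) without RC/- D53 replicate 27. Cnnm2 differed by 0.14 (95% interval -0.05 to 0.33) in D18 and 0.12 (95% interval -0.07 to 0.32) in D53.

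The muscle transcripts of libraries 20 to 27 bear on these comparisons unequally. In D18, the 2 libraries outside libraries 20 to 27 are replicates 18 and 19. Without the others, they gave log2 fold changes against RC/- of 1.92 for Slc12a3, 2.08 for Calb1, 1.78 for Klk1, 1.14 for Wnk1 and -0.81 for Trpv5, and 8 of the 10 members passed. In that fit 7 members rose, against 10.5% of all genes, and Trpv5 fell, against 16.4%. In D53 all 5 libraries are among libraries 20 to 27, so the line and its high muscle transcripts can be separated only through the D18 libraries. With libraries 20 to 27 as a covariate, 5 members rose in D53, against 3.81% of all genes: Slc12a3 at 1.42 (adjusted p = 0.00717), Calb1 at 1.92 (adjusted p = 0.000259), Klk1 at 1.53 (adjusted p = 0.000103), Wnk1 at 1.001 (adjusted p = 0.000631) and Pvalb at 1.84 (adjusted p = 0.0321). Trpm6 at 0.61 (adjusted p = 0.0914), Wnk4 at 0.80 (adjusted p = 0.0751) and Trpv5 at -0.48 (adjusted p = 0.359) did not, although the differences of Trpm6 and Wnk4 were larger than without the covariate.

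Pvalb is the member that these transcripts touch directly. It had 12.2 and 13.6 CPM in RC/- D18 replicates 18 and 19 and 19.5, 20.9 and 25.6 CPM in replicates 20 to 22, with muscle marker sums of 10.8 to 221 CPM across the group. In RC/- D53 kidneys it had 14.1, 16.4, 13.97, 19.5 and 14.6 CPM with muscle marker sums of 181 to 240 CPM. Of the 12 markers, 11 had counts in all of libraries 20 to 27, and 6 (Tnnc2, Ckm, Myh4, Myh1, Myl1 and Tnnt3) had a count of 0 in at least 1 of the other 16 libraries. The log2 fold change of Pvalb against RC/- was 2.79 (adjusted p = 1.60e-07) in D18 with all libraries and 2.33 (adjusted p = 0.00131) without libraries 20 to 27. In D53 it was 2.61 (adjusted p = 1.09e-06), and no library of that group lies outside libraries 20 to 27. Replicates 18 and 19, whose muscle markers were as low as in the unedited kidneys, were within the range of the RC/+ kidneys.

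**Figure D4:**
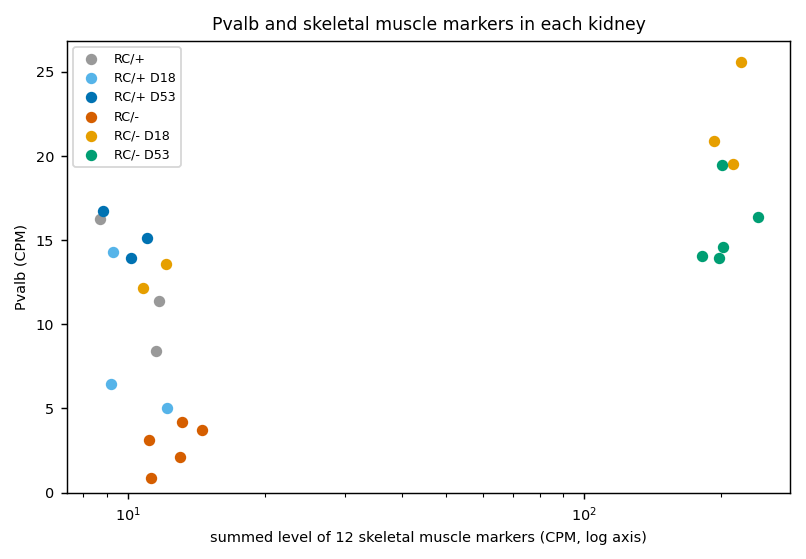
Level of Pvalb in CPM against the summed CPM of 12 skeletal muscle markers (log axis) in each of the 24 kidneys, by group. The 8 kidneys at 181 to 240 CPM of muscle markers are libraries 20 to 27, and the 5 RC/- kidneys lie lowest for Pvalb, at 0.885 to 4.22 CPM, among the kidneys with low muscle markers.

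The pathway lists were compared in the edited RC/- kidneys against the same RC/- kidneys. Over all genes tested, 14.3% rose and 26.9% fell in D18, and 11.3% rose and 18.9% fell in D53. All 7 basolateral channel and pump genes rose in both lines, with medians of 0.63 in D18 and 0.51 in D53, and all 4 transcription factors rose in both. Of the 8 other calcium genes 5 rose and Trpv6 fell in either line. Of the 9 magnesium genes 3 rose and 1 fell in each, Egf rising by 2.97 in D18 and 2.28 in D53. Of the 13 WNK and SPAK regulators 3 rose and 3 fell in each, 23.1% either way, with the share that fell near that of all genes. Among them Klhl3 rose by 1.10 and 0.83 and Hsd11b2 fell by 1.30 and 0.75 on the log2 scale. With TMM factors 5 magnesium genes rose in D18, and 7 regulators rose in D18 and 6 in D53, with the same numbers falling. All 10 proximal tubule markers rose in both lines, and of 8 principal cell markers 7 fell in D18 and 4 in D53. The injury and macrophage markers fell in both lines, 8 of 8 in each list with total-count scaling and 7 of 8 macrophage markers, without Csf1r, with TMM factors. Their part in the changes of the members was not tested.

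The remaining difference between cystic and noncystic kidneys was then tested within each edited line. Its log2 fold changes come from other libraries than those of RC/- against RC/+. The spread between mice that the tests use was estimated from all 24 libraries, so the tests are not independent of that comparison. In RC/- D18 against RC/+ D18, 0 of 10 members passed by limma-trend, edgeR or DESeq2, against 0.266% of all genes called by limma-trend. Of all 22570 genes tested, 2011 had an unadjusted p below 0.05, and so did 2 members. Those were Pvalb, at 1.18 (95% interval 0.43 to 1.93, adjusted p = 0.249), which was 0.73 (adjusted p = 0.597) without libraries 20 to 27, and Slc8a1, at -0.46 (95% interval -0.87 to -0.06, adjusted p = 0.476). Slc12a3 differed by -0.20 (95% interval -0.63 to 0.22), Calb1 by -0.25 (95% interval -0.62 to 0.12) and Trpv5 by -0.27 (95% interval -0.66 to 0.12). For these 3 genes the interval leaves out the size found in the unedited kidneys, whereas that of Slc8a1 includes it. The remaining members differed by -0.14 (Klk1), -0.16 (Trpm6), -0.09 (Wnk1), -0.10 (Wnk4) and 0.06 (Cnnm2).

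In RC/- D53 against RC/+ D53, 0 members passed by limma-trend, edgeR or DESeq2, against 2.6% of all genes called by limma-trend. Of all 22570 genes tested, 3013 had an unadjusted p below 0.05, and so did 6 members, all 6 with lower values in RC/-. Slc12a3 differed by -0.50 (95% interval -0.92 to -0.07, adjusted p = 0.271), Calb1 by -0.52 (95% interval -0.89 to -0.15, adjusted p = 0.152) and Klk1 by -0.32 (95% interval -0.58 to -0.06, adjusted p = 0.234). The RC/- D53 kidneys lay below all RC/+ D53 kidneys for 4 members, Slc12a3, Calb1, Wnk1 and Cnnm2, as for 3.45% of all genes tested. When only these 2 groups entered the fit, Slc12a3 (adjusted p = 0.0451) and Calb1 (adjusted p = 0.000758) passed, against 0.465% of all genes that passed with lower values in RC/-. All RC/- D53 kidneys and no RC/+ D53 kidney had high muscle transcripts, so no library of these groups separates muscle content from genotype. With libraries 20 to 27 as a covariate, which draws on the D18 libraries, Slc12a3 differed by -0.40 (adjusted p = 0.584) and Calb1 by -0.39 (adjusted p = 0.531). In that fit 0 members passed, against 287 of all genes. An unadjusted p below 0.05 was found for 1 member and was not counted over all genes. The other members differed by -0.50 (Slc8a1), -0.27 (Wnk1), -0.23 (Cnnm2), -0.22 (Trpm6), -0.03 (Wnk4), 0.17 (Trpv5) and 0.03 (Pvalb) without the covariate. Of the genes beside the members, Trpv6 was still higher in RC/- kidneys of each line, by 0.86 (adjusted p = 0.0469) in D18 and 1.83 (adjusted p = 2.16e-06) in D53, as was Hsd11b2, by 0.76 and 1.22 on the log2 scale. Under TMM factors neither passed in D18 (Trpv6 at 0.83, adjusted p = 0.0717, and Hsd11b2 at 0.72, adjusted p = 0.0892, limma-trend).

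**Figure D5:**
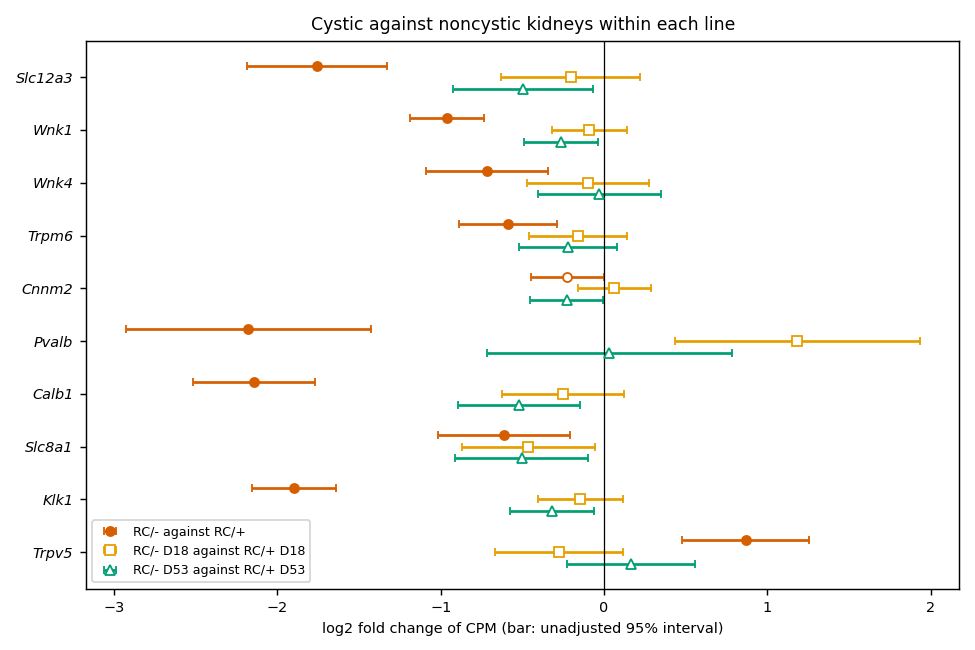
Log2 fold change of CPM in cystic against noncystic kidneys for the 10 members, in the unedited kidneys (circles), D18 (squares) and D53 (triangles), with unadjusted 95% intervals; filled symbols passed at an adjusted p below 0.05. The filled symbols are all of the unedited kidneys, 8 below 0 and Trpv5 above it at 0.87, and Pvalb in D18 lies at 1.18.

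Whether the cystic difference itself changed with the deletion was tested by the interaction. In D18, 5 members had a positive interaction and Trpv5 a negative one, against 6.31% and 10.8% of all genes. The values were 1.55 for Slc12a3 (adjusted p = 0.000643), 1.89 for Calb1 (adjusted p = 2.66e-05), 1.75 for Klk1 (adjusted p = 1.02e-06), 0.87 for Wnk1 (adjusted p = 0.000397), 3.36 for Pvalb (adjusted p = 8.45e-05) and -1.14 for Trpv5 (adjusted p = 0.00442). Trpm6, Wnk4, Slc8a1 and Cnnm2 did not pass, but Wnk4 did without RC/- replicate 14 (0.75, adjusted p = 0.0265). In D53, the interaction of the same 5 members was positive, from 0.70 for Wnk1 (adjusted p = 0.00508) to 2.21 for Pvalb (adjusted p = 0.00653), and that of Trpv5 was -0.70 (adjusted p = 0.0948) and that of Wnk4 0.69 (adjusted p = 0.0853), against 4.73% of all genes with a positive and 6.55% with a negative interaction. With TMM factors these were 6.51% and 4.31% in D53 and 8.33% and 7.84% in D18. Without RC/- replicate 14 the D53 interactions of Trpv5 (-0.83, adjusted p = 0.0262) and Wnk4 (0.82, adjusted p = 0.0214) passed, and that of Wnk4 also passed by DESeq2 (adjusted p = 0.0438). Those of Trpm6, Slc8a1 and Cnnm2 were 0.37, 0.11 and -0.00 and did not pass. With libraries 20 to 27 as a covariate, 3 members passed in D53, Calb1, Klk1 and Wnk1, against 0.806% of all genes with a positive interaction, and Slc12a3 missed the threshold at 1.36 (adjusted p = 0.0754), as did Pvalb at 1.45 (adjusted p = 0.283).

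Between the edited lines, 0 members passed in RC/- D53 against RC/- D18 by limma-trend, edgeR or DESeq2, against 0.266% of all genes called by limma-trend. Of all 22570 genes tested, 2993 had an unadjusted p below 0.05, and so did 4 members. Slc12a3 differed by -0.53 on the log2 scale (95% interval -0.90 to -0.16, adjusted p = 0.23), Trpm6, Klk1, Wnk4, Calb1, Wnk1, Slc8a1, Pvalb and Cnnm2 by between -0.28 and -0.02, and Trpv5 by 0.29. Within libraries 20 to 27, which hold 5 D53 and 3 D18 kidneys, the difference of Slc12a3 was -0.49 (adjusted p = 0.189) and that of Trpv5 0.33 (adjusted p = 0.346). Trpv6 passed, higher in D53 by 1.14 on the log2 scale (adjusted p = 0.00329).

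The genes whose log2 CPM tracked Slc12a3 most closely over the 24 libraries were Nlrp6, Car14, Slc34a1, Pbld1 and Slc6a20b, with root mean square differences of 0.164 to 0.200 after centring each gene, compared with 0.789 for the spread of Slc12a3 itself and a median of 0.901 over all genes. Slc34a1, the phosphate cotransporter, is a proximal tubule marker. For Calb1 the nearest was Klk1, itself a member, at 0.242, followed by Slc22a29, F13b and Ass1 at 0.253 to 0.262. Likeness was not recomputed within groups.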

How the data were processed

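RNA-seq was analysed for 24 whole kidneys, 1 library per mouse. The authors trimmed paired reads with Trim Galore 0.6.3, aligned them to GRCm38 with STAR 2.5.3a and counted reads per gene on Ensembl models, and the deposited values are raw read counts for 54532 genes. Which strand setting was used is not given in the sources used here. Per-sample columns left unused numbered 0. Rows without a symbol (343 genes) held at most 0.0261% of a library's counts and were kept in the totals.

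Samples were grouped by the deposited labels. The members and gene lists were chosen with earlier results of these data known, so no list is independent evidence. Of the gene identifiers, 54409 matched GENCODE M21, which gave coordinates and exon lengths. Promoter sequences are from RefSeq (GRCm38.p6); 9 of 10 members matched.

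Log2 CPM was computed from total counts with a prior count of 2 (edgeR 4.0.16). A mean log2 CPM of -3 or more was required, and the 22570 genes that met it were tested by limma-trend (limma 3.58.1, R 4.3.3) in a model with 6 group means and all 24 libraries. The test and limit follow the study; its model design is not given in the sources used here. Tests were two-sided with Benjamini-Hochberg adjustment over all genes tested, and calls were made at 0.05. The interaction is the RC/- minus RC/+ difference in an edited line minus that in the unedited kidneys. The fit was tested on simulated data. All 10 members are named in each comparison, and from each other list up to 2 genes with the greatest rise and fall in RC/- against RC/+. Counts of reads limit precision at depths of 20379982 to 30837488 counts, and p-values set a group difference against the spread between mice within groups. Each edited line goes back to a single founder, so that spread does not cover variation between founders. Alternatives were TMM and DESeq2 size factors, other filters and prior count, edgeR quasi-likelihood, DESeq2 1.42.0, only the groups compared, sex (14 female and 10 male by Xist and Ddx3y) or libraries 20 to 27 as a covariate, a fold change limit and leaving out each library. Leaving out libraries 20 to 27, and using only those, were chosen after seeing the data. Some results of these rules are not reported here.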

Additional observations from a re-analysis of the deposited data

Results flagged for a closer look

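In 3 of 30 groups of 5 kidneys, a value was set apart from the others by more than Dixon's 95% limit of 0.71 for the gap over the range, which chance alone gives in about 1 of 20 groups. Slc12a3 was low in RC/- D18 replicate 20, at 529.8 CPM, Cnnm2 was high in RC/- replicate 15, at 31.6 CPM, and Cnnm2 was low in RC/- D53 replicate 27, at 24.9 CPM.

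The cystic difference of 6 members in D18 was not that of the unedited kidneys by the interaction test (limma-trend): Slc12a3 by 1.55, Calb1 by 1.89, Pvalb by 3.36, Klk1 by 1.75, Wnk1 by 0.87 and Trpv5 by -1.14 on the log2 scale. For D53 it differed for 5 members: Slc12a3 by 1.26, Calb1 by 1.62, Pvalb by 2.21, Klk1 by 1.58 and Wnk1 by 0.70. All 5 RC/- D53 and 3 RC/- D18 kidneys had high skeletal muscle transcripts. In the D18 interaction without libraries 20 to 27, 5 members were higher and 1 lower, against 2083 of all genes called in either direction. The part of these transcripts in the differences was not tested beyond that fit and the covariate fit.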

How the results depend on the processing

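No paired analysis was possible because every mouse has its own replicate number. Of 2050 single-gene values recomputed, 1984 kept direction and side of the threshold. The number of members passing changed by over 1.5 times only as follows. With a fold change limit of 1 on the log2 scale it was 4 in RC/- against RC/+, 5 in RC/- D18 against RC/- and 4 in RC/- D53 against RC/-. With libraries 20 to 27 as a covariate it was 5 in RC/- D53 against RC/- and 3 in the D53 interaction. With only the groups compared it was 2 in RC/- D53 against RC/+ D53. Leaving out 1 library gave 8 to 9 members in RC/- against RC/+, 8 to 9 in either edited RC/- group against RC/-, 6 to 7 in the D18 interaction and 5 to 7 in the D53 interaction.

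Signs changed only for differences that passed in no setting. In RC/- D53 against RC/+ D53, Pvalb was -0.0036 (TMM), -0.014 (DESeq2 factors), -0.0014 (edgeR), -0.0044 (DESeq2), -0.040 (sex) and -0.73 (covariate), and Wnk4 was 0.20 (covariate). The D53 interaction of Cnnm2 was 0.10 (TMM), 0.087 (DESeq2 factors), 0.0998 (edgeR) and 0.092 (DESeq2). With the covariate, Cnnm2 was -0.043 in RC/- D53 against RC/-, and in RC/- D18 against RC/+ D18 Cnnm2 was -0.037, Wnk1 0.024 and Wnk4 0.037, equal to these digits without libraries 20 to 27. With 1 library left out, ranges spanning 0 were -0.11 to 0.33 (Calb1), -0.042 to 0.11 (Klk1) and -0.27 to 0.015 (Cnnm2) in RC/+ D18 against RC/+, -0.021 to 0.25 (Trpm6) in RC/+ D53 against RC/+, -0.099 to 0.19 (Cnnm2) and -0.25 to 0.019 (Wnk4) in RC/- D18 against RC/+ D18, -0.049 to 0.098 (Pvalb) and -0.12 to 0.035 (Wnk4) in RC/- D53 against RC/+ D53, -0.055 to 0.064 (Cnnm2) in RC/- D53 against RC/- D18, and -0.0092 to 0.27 (Slc8a1) and -0.053 to 0.077 (Cnnm2) in the D53 interaction. The cause was not tested.

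Over all genes, the fold change limit left 2653 of 8497 calls in RC/- against RC/+, 2515 of 9305 in D18 and 1481 of 6805 in D53 against RC/-, 23 of 60 in RC/- D18 against RC/+ D18, 193 of 587 in RC/- D53 against RC/+ D53, 13 of 60 in RC/- D53 against RC/- D18, and 1428 of 3858 and 889 of 2545 in the D18 and D53 interactions. The covariate gave 1796 in D53 against RC/-, 11 in RC/- D18 against RC/+ D18, 287 in RC/- D53 against RC/+ D53, 163 in RC/- D53 against RC/- D18, and 2337 and 403 in the interactions. Without libraries 20 to 27 the D18 calls against RC/- were 6060, those against RC/+ D18 were 3 and those of the interaction 2083. RC/- D18 against RC/+ D18 gave 37 calls with either set of factors or edgeR, 12 with only its groups, 140 with DESeq2 and 14 to 90 with 1 library left out. RC/- D53 against RC/- D18 gave 273 with DESeq2 and 19 to 59 with 1 library left out. RC/- D53 against RC/+ D53 gave 313 to 579, and the D53 interaction 1643 (without RC/+ replicate 5) to 2940, with 1 library left out. RC/+ D18 against RC/+ gave 2 with edgeR and 5 with DESeq2 in place of 1.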
